A study of Mus musculus with 8 samples.

Results

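Foxo1, Foxo3, Foxp1 and Foxk1, 4 genes of the forkhead family, were followed through RNA:DNA hybrid maps of mouse muscle stem cells (MuSCs). All union peaks that the authors' table assigned to these gene symbols were taken, 39 of 28265 peaks, with 6 in Foxo1, 3 in Foxo3, 24 in Foxp1 and 6 in Foxk1. The maps came from DNA-RNA immunoprecipitation sequencing (DRIP-seq), in which the S9.6 antibody pulls down the DNA of R-loops. The genotypes were compared with 3 S9.6 libraries each. The control group (Ctrl) was labelled Pax7CreERT/Suv4-20h1WT. The mutant group (Kmt5b sKO) was labelled Pax7CreERT/Suv4-20h1KO and lacked the histone H4K20 dimethyltransferase Kmt5b, also called Suv4-20h1. Both groups carried the tamoxifen-inducible Cre driven by Pax7, a gene of muscle stem cells, so recombination was limited to cells that expressed it in adult mice of C57BL/6 background. The cells were purified and grown in culture before DNA was prepared, and 1 input library of each genotype had no values used here.

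Forkhead proteins are transcription factors that bind DNA through a winged-helix domain. Foxo1 and Foxo3 move into the nucleus when PI3K and Akt signalling is low, and they are known for the control of quiescence, stress resistance and protein breakdown in muscle and its stem cells. Foxk1, known in muscle as a myocyte nuclear factor, acts as a repressor of autophagy genes and is found in muscle progenitors. Foxp1 is a repressor that works as a homodimer or with other Foxp proteins. An R-loop forms when a transcript pairs with its template strand and leaves the other strand single. Stretches of G on the displaced strand are known to favour such hybrids.

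The 2 Foxo1 peaks nearest to the transcription start site (TSS) were the only peaks of these 4 genes that were called higher in Kmt5b sKO, and both rose about as much. The sequence of the nearer one, peak 1, is shown with that of Foxo1 peak 5, which was not called, and with the longest peaks of Foxp1 and Foxk1, which carried the most signal of their genes and were not called either. Each line gives the central 300 bases of a peak in the GRCm38 genome (mm10), read 5′ to 3′ on the strand of the gene's own transcript, and capitals mark runs of at least 4 G.
Foxo1 peak 1: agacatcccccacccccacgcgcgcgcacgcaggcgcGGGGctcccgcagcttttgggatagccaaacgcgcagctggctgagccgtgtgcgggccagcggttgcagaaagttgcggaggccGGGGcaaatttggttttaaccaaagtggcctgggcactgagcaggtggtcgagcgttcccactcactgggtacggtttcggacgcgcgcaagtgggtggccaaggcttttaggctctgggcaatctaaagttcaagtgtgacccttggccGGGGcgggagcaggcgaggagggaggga
Foxo1 peak 5: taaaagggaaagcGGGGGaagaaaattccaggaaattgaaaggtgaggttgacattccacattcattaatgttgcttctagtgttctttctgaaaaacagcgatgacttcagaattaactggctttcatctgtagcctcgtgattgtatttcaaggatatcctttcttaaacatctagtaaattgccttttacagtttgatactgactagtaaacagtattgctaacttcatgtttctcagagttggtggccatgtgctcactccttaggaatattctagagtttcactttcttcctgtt
Foxp1 peak 19: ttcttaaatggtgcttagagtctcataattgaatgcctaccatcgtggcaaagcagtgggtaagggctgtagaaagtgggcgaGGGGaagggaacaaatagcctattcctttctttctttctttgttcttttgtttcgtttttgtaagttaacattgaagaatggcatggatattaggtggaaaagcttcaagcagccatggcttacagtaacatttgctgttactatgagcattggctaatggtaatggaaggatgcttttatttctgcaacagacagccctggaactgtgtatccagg
Foxk1 peak 3: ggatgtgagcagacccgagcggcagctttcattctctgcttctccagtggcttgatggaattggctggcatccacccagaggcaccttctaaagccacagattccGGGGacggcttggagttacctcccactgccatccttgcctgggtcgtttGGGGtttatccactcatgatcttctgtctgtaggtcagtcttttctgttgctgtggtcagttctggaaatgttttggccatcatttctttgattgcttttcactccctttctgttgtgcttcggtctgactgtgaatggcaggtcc

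The windows lay at chr3:52269851-52270150 for Foxo1 peak 1 and chr3:52330451-52330750 for peak 5, both on the plus strand. The Foxp1 window was chr6:98986251-98986550 on the minus strand and the Foxk1 window chr5:142421051-142421350 on the plus strand. None of the 4 windows held an annotated exon base of its gene. Foxo1 peak 1 had 3 such runs in its window, Foxo1 peak 5 and the Foxp1 peak had 1 each, and the Foxk1 peak had 2. GGGG was searched on both strands of the central 300 bases of 21756 tested peaks assigned to a gene, and 49.7% held it on the sense strand and 43.5% on the antisense strand. A run is a description of the sequence and no measure of hybrid formation.

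Of the 39 peaks, 38 passed the minimum mean score of 30 over the 6 libraries and were tested with limma on log2(score + 1). A score is the S9.6 signal of a peak after scaling each library by its Drosophila spike-in. It was read as a sum over the peak, because it grew with length (21.0 to 49.7 per kb over the 39 peaks of 600 to 15600 bp), though the methods name a tool that averages signal, and per-kb values rest on that reading. In the test, a peak was called at a fold change above 1.5 with a Benjamini-Hochberg adjusted p below 0.1. Of the 38 tested forkhead peaks, 2 (5.26%) were called higher in Kmt5b sKO, against 32.9% of all 25815 tested autosomal peaks. None was called lower, against 0.883% of all tested peaks, and at an unadjusted limma p under 0.05 there were 6 of 38 (15.8%), against 46.1% of all tested peaks, and none of the 6 was negative, against 3.29%. The median log2 fold change of the forkhead peaks was 0.17 (quartiles −0.085 and 0.36), and that of all tested peaks was 0.35 (quartiles 0.049 and 0.76). Positive values were found in 25 of 38 forkhead peaks (65.8%) and in 78.7% of all tested peaks. The 3 Kmt5b sKO libraries all lay above the 3 Ctrl libraries in 6 of 38 forkhead peaks (15.8%), against 41.5% of all tested peaks, and all lay below in 0 of 38, against 3.81%.

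**Figure D1:**
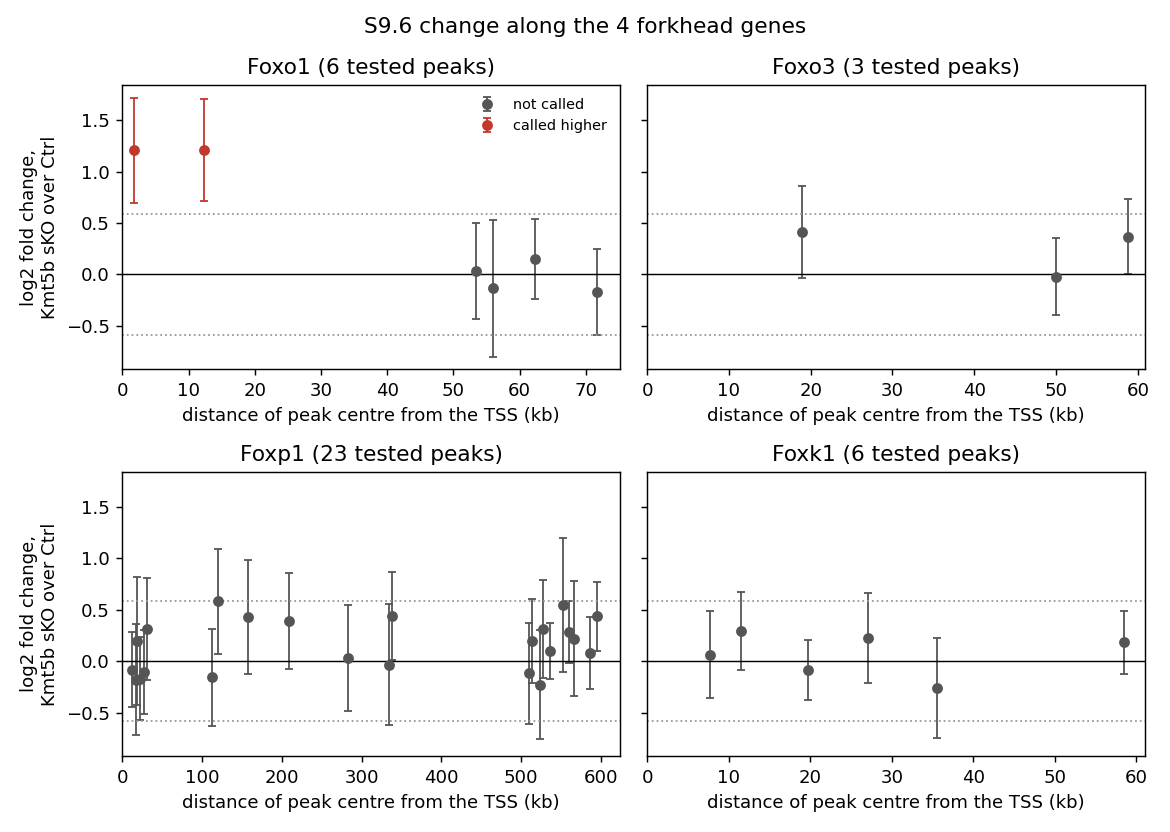
Log2 fold change of S9.6 score (Kmt5b sKO over Ctrl, y axis) against the distance of the peak centre from the TSS (kb, x axis) in 4 panels, 1 per gene, for the 38 tested peaks. Points are limma estimates from 3 libraries per genotype, bars are 95% confidence intervals, dotted lines mark a fold change of 1.5, and the 2 called peaks, both of Foxo1 at 1.664 and 12.264 kb, lie above the upper line.

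Shorter peaks of the whole table were called more often, so the forkhead peaks were also read by length. Their median length was 2600 bp, against 2400 bp over all tested peaks. Among tested peaks of 200 to 1200 bp, 67.8% were called higher, and 1 of 3 forkhead peaks was. In the class of 1400 to 2000 bp the share was 47.5%, with 1 of 10 forkhead peaks. At 2200 to 3000 bp the share was 26.2%, at 3200 to 5800 bp 12.8% and at 6000 to 145000 bp 4.27%, and the forkhead counts were 0 of 10, 0 of 11 and 0 of 4. The median log2 fold change of the 10 forkhead peaks of 1400 to 2000 bp was 0.13, against 0.56 over all 6014 peaks of that class. The 4 longest forkhead peaks had a median of 0.14, against 0.057 over the class. Of 9 forkhead peaks centred within 20 kb of the 1 TSS that the table gives for each gene, 2 (22.2%) were called higher, against 30.3% of all tested peaks so placed.

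**Figure D2:**
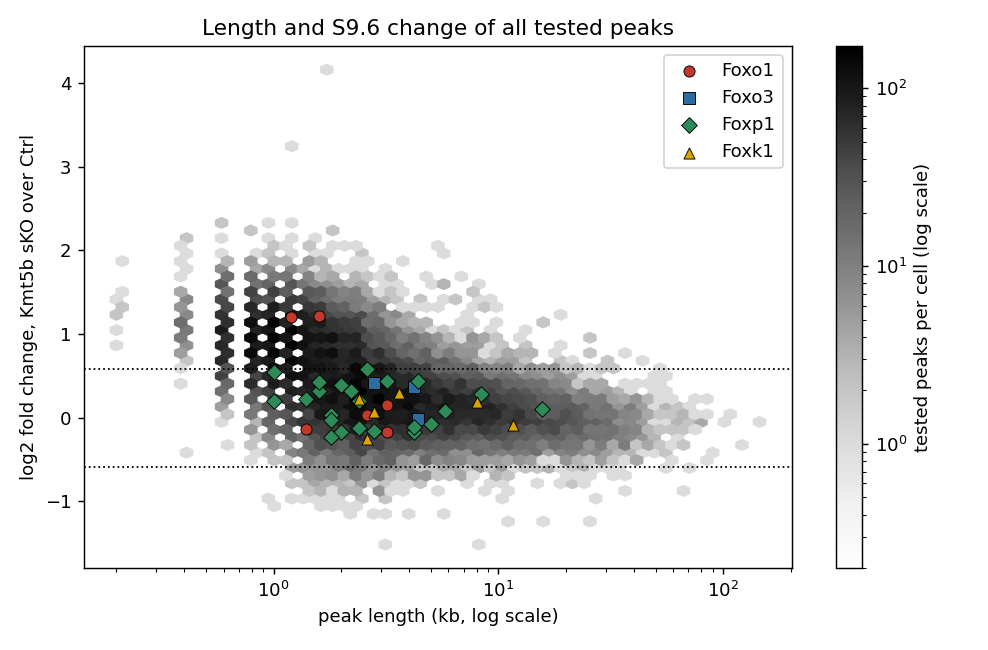
Log2 fold change of S9.6 score (y axis) against peak length (kb, log scale, x axis) for 25815 tested peaks, with grey shading for the number of peaks per cell on a log scale. Coloured symbols are the 38 forkhead peaks and dotted lines mark a fold change of 1.5 in either direction, with 2 Foxo1 peaks of 1.2 and 1.6 kb above the upper line and no forkhead peak below the lower line.

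Foxo1 (ENSMUSG00000044167, chr3:52268336-52353221, plus strand) had all 6 peaks wholly or mostly in intron 1 of its 3-exon transcript, and they covered 15.6% of its 84.9 kb. The gene encodes the FoxO factor best known for restraining growth of muscle under low insulin signalling, and the study had singled it out on these same libraries, so its direction here is not independent evidence. Peak 1 (chr3:52269400-52270599, 1200 bp) was centred 1664 bp from the TSS and reached the end of exon 1, which gave 1.83% of its bases. It also overlapped the first bases of Gm20402, a gene annotated on the opposite strand, and the scores carry no strand. Its scores were 34, 40 and 33 in Ctrl and 75, 85 and 91 in Kmt5b sKO. All 3 Kmt5b sKO libraries were above all Ctrl libraries, by a wide gap. The log2 fold change came to 1.21 ± 0.26 (SE; 95% interval 0.70 to 1.72, limma adjusted p = 6.1e-05).

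Foxo1 peak 2 (chr3:52279800-52281399, 1600 bp) lay wholly in intron 1, 12264 bp from the TSS. Its scores were 49, 28 and 38 in Ctrl and 100, 82 and 83 in Kmt5b sKO. Again the groups did not overlap, and the lowest Kmt5b sKO library was well above the highest Ctrl library. The log2 fold change came to 1.21 ± 0.25 (SE; 95% interval 0.72 to 1.71, limma adjusted p = 3.4e-05). Of the 5197 tested peaks in the length class of peak 1, 19.3% had a log2 fold change at least as large, and for peak 2 the share was 8.80% of 6014.

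Both called peaks differed in base composition. Foxo1 peak 1 had a GC content of 60.6%, and 0.216% of 21757 tested peaks in genes had as much or more. It held 15.8 non-overlapping GGGG matches per kb on the sense strand, where a long stretch of G can count several times. That density was reached by 0.165% of those peaks. Foxo1 peak 1 also held more G than C (skew 0.22, reached by 3.52%). Foxo1 peak 2 had a GC content of 39.3%, a skew of −0.04 and no GGGG match on the sense strand. Soft-masked repeats made up 7.58% of peak 1 and 23.2% of peak 2. Per length, peak 1 was the densest tested peak of the 4 genes, with a mean score of 49.7 per kb against a median of 29.4 over the tested forkhead peaks.

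The other 4 Foxo1 peaks lay 53.4 to 71.7 kb from the TSS, and in each the genotypes overlapped. Their log2 fold changes were 0.03, −0.13, 0.15 and −0.17 in order along the gene, with limma adjusted p of 0.94, 0.79, 0.57 and 0.57. Peak 5 (chr3:52329000-52332199, 3200 bp) had scores of 92, 96 and 104 in Ctrl and 141, 91 and 99 in Kmt5b sKO, with 1 Kmt5b sKO library above the rest. Peak 6, of the same length, had scores of 79, 102 and 85 in Ctrl and 68, 100 and 71 in Kmt5b sKO. Here the Kmt5b sKO libraries lay in and below the Ctrl range.

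**Figure D3:**
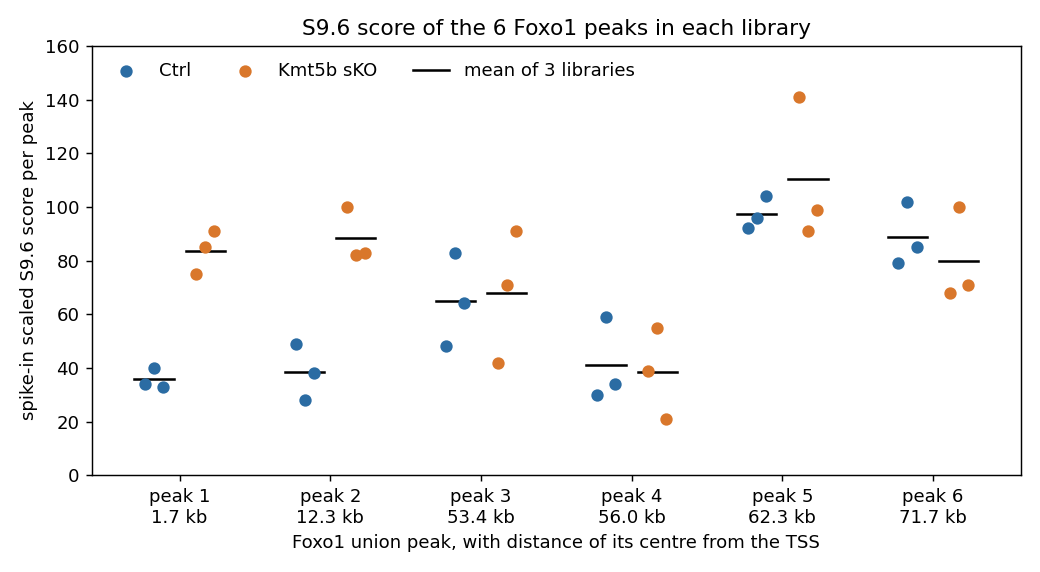
S9.6 score (y axis) of the 6 Foxo1 peaks in each of 3 Ctrl and 3 Kmt5b sKO libraries, ordered by distance of the peak centre from the TSS (x axis). Points are libraries and lines are group means, and the genotypes separate at peaks 1 and 2 and overlap at peaks 3 to 6.

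Within each library, peaks 1 and 2 held 25.0%, 16.7% and 19.8% of the summed Foxo1 score in Ctrl and 37.6%, 34.5% and 38.2% in Kmt5b sKO. This share does not depend on the scaling of a library, but the split between the first 2 peaks and the other 4 was made after their values were seen and is given with no test. The sum over peaks 1 and 2 was 74.0 ± 7.94 (SD, n = 3) in Ctrl and 172 ± 4.36 in Kmt5b sKO, a ratio of 2.32. The sum over the other 4 peaks was 292 ± 45.7 and 296 ± 18.3, a ratio of 1.01.

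Foxo3 (ENSMUSG00000048756, chr10:42181841-42276755, minus strand) encodes the FoxO factor known for autophagy genes and for keeping stem cells quiescent. Its 3 peaks lay in intron 2 and covered 11.4 of 94.9 kb, and none was called. Peak 1 (chr10:42256400-42259199), the nearest to the annotated TSS at 18955 bp, also contained the start of 1 shorter transcript. Its scores were 62, 61 and 63 in Ctrl and 86, 60 and 110 in Kmt5b sKO, with 2 Kmt5b sKO libraries above and 1 just below the Ctrl range. The log2 fold change came to 0.41 ± 0.23 (SE; 95% interval −0.03 to 0.86, limma adjusted p = 0.14). Without Kmt5b sKO replicate 2, the library with the score of 60, it was 0.64 and was called higher (limma adjusted p = 0.034).

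Foxo3 peak 2 (chr10:42224600-42228999), the longest at 4400 bp, had scores of 112, 115 and 113 in Ctrl and 92, 134 and 113 in Kmt5b sKO. The Kmt5b sKO libraries fell on both sides of the Ctrl values (log2 fold change −0.02, limma adjusted p = 0.95). Foxo3 peak 3 (chr10:42215800-42219999), the densest per length, had scores of 111, 130 and 93 in Ctrl and 129, 161 and 140 in Kmt5b sKO. The groups overlapped at 1 pair of values (log2 fold change 0.37, limma adjusted p = 0.11).

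Foxp1 (ENSMUSG00000030067, chr6:98925338-99522721, minus strand) was the longest of the 4 genes at 597 kb, with 31 annotated transcripts. Its peaks covered 13.4% of it and lay in 3 stretches, with peaks 1 to 6 within 31 kb of the TSS, peaks 7 to 14 at 106.6 to 338.3 kb and peaks 15 to 24 at 509.7 kb or more. These distances run from 1 annotated TSS, and peaks 23 and 24 each contained another annotated start of a Foxp1 transcript. Peaks 1 to 11 also overlapped Gm20696, a protein-coding gene on the same strand, so their signal cannot be assigned to 1 of these genes. None of the 23 tested peaks was called, and their log2 fold changes ran from −0.23 to 0.58, 15 of them positive. Peak 7, a short peak of 600 bp, was not tested because its mean score was 28.0, although it had the second highest score per kb of all 39 peaks. Its scores were 37, 15 and 15 in Ctrl and 26, 28 and 47 in Kmt5b sKO, and the groups overlapped.

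A further union peak of 9200 bp overlapped the annotated Foxp1 gene body but was assigned to Gm20696, so it is not among the 24. It was not called (log2 fold change 0.33, limma adjusted p = 0.054). With it, the ratio of summed Foxp1 scores was 1.13 (exact permutation p = 0.3). Foxp1 peak 1 (chr6:99508800-99513799, 5000 bp) was the nearest to the TSS of the peaks assigned to Foxp1, at 11421 bp. Its scores were 139, 171 and 95 in Ctrl and 128, 120 and 124 in Kmt5b sKO. The Kmt5b sKO libraries lay inside the Ctrl range (log2 fold change −0.08, limma adjusted p = 0.76). Foxp1 peak 19 (chr6:98978600-98994199), 15600 bp within intron 8, was the longest and strongest peak of the 4 genes. Its scores were 561, 832 and 559 in Ctrl and 623, 748 and 689 in Kmt5b sKO, and Ctrl replicate 2 was above all Kmt5b sKO libraries while the other 2 Ctrl libraries were below them. The log2 fold change came to 0.10 ± 0.14 (SE; limma adjusted p = 0.60), and without Ctrl replicate 2 it was 0.29 (limma adjusted p = 0.0094), still under the fold change of 1.5. Without Ctrl replicate 1 or 3 it was 0.0058 or 0.0033.

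The smallest adjusted p in Foxp1 was at peak 24 (chr6:98925600-98929999, 4400 bp), which lay in the last exon, exon 18. Its scores were 145, 146 and 139 in Ctrl and 201, 192 and 190 in Kmt5b sKO. The groups did not overlap and each was tight, yet the log2 fold change of 0.44 (limma adjusted p = 0.034) was under the fold change of 1.5. Foxp1 peaks 9 and 14 also had adjusted p under 0.1 without reaching that fold, with log2 fold changes of 0.58 (limma adjusted p = 0.062) and 0.44 (limma adjusted p = 0.096), and their groups overlapped. Peak 9 was called higher without Ctrl replicate 1 (0.85), without Kmt5b sKO replicate 3 (0.84) and with a pseudocount of 0.5 (0.59), and peak 14 without Ctrl replicate 2 (0.67) and without Kmt5b sKO replicate 2 (0.68). These 3 peaks were picked out after their values were seen. Foxp1 peaks 11 and 20 were the other 2 whose Kmt5b sKO libraries all lay above the Ctrl libraries, with log2 fold changes of 0.39 and 0.55 (limma adjusted p = 0.19 and 0.18).

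Foxk1 (ENSMUSG00000056493, chr5:142401497-142462011, plus strand) had the largest part of its length under peaks, 47.9% of 60.5 kb. None of its 6 peaks was called, and the log2 fold changes from the TSS to the end were 0.06, 0.29, −0.09, 0.23, −0.26 and 0.18. Foxk1 peak 1 (chr5:142407800-142410599), centred 7.70 kb from the TSS, had scores of 87, 73 and 75 in Ctrl and 61, 86 and 104 in Kmt5b sKO, with the wider spread in Kmt5b sKO (limma adjusted p = 0.84). Foxk1 peak 3 (chr5:142415400-142426999), 11600 bp in intron 1, had scores of 359, 466 and 357 in Ctrl and 402, 412 and 301 in Kmt5b sKO. The highest and the lowest library were Ctrl replicate 2 and Kmt5b sKO replicate 3 (limma adjusted p = 0.68). Foxk1 peak 4 was the one peak of the gene whose Kmt5b sKO libraries all lay above the Ctrl libraries, with scores of 67, 71 and 68 in Ctrl and 75, 78 and 89 in Kmt5b sKO (limma adjusted p = 0.45). Foxk1 peak 6 (chr5:142456000-142463999, 8000 bp) spanned the last exon, exon 9, and ran past the gene end into the start of Ap5z1, a gene on the same strand. It had scores of 280, 296 and 229 in Ctrl and 299, 279 and 333 in Kmt5b sKO, which overlapped (limma adjusted p = 0.36).

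Summed over all peaks of a gene, the score of Foxo1 was 332, 408 and 358 in Ctrl and 465, 484 and 456 in Kmt5b sKO, a ratio of means of 1.28 (exact permutation test over 3 against 3 libraries, two-sided, p = 0.1). The groups did not overlap, and 0.1 is the smallest p this design can give. The share of all genes whose sums separate is not given here. Among single tested peaks, 41.5% had all Kmt5b sKO libraries above the Ctrl libraries. The ratios of summed scores rest on the spike-in scaling. With each library centred on its median peak they were below 1, at 0.934 for Foxo1, 0.867 for Foxo3, 0.811 for Foxp1 and 0.765 for Foxk1. Each centred ratio had an exact permutation p of 0.1, so Kmt5b sKO then lay below Ctrl without overlap in each gene. The score of Foxo3 was 285, 306 and 269 in Ctrl and 307, 355 and 363 in Kmt5b sKO, a ratio of 1.19 (exact p = 0.1). Here the lowest Kmt5b sKO library lay just above the highest Ctrl library. The score of Foxp1 was 2337, 2736 and 2199 in Ctrl and 2686, 2629 and 2752 in Kmt5b sKO, a ratio of 1.11 (exact p = 0.3), and that of Foxk1 was 943, 1106 and 882 in Ctrl and 1029, 1025 and 1015 in Kmt5b sKO, a ratio of 1.05 (exact p = 0.6). In both, Ctrl replicate 2 reached into or above the Kmt5b sKO range. Per kb of peak, the mean score in Ctrl was 25.1 for Foxo3, 27.7 for Foxo1, 30.4 for Foxp1 and 31.5 for Foxk1. In Kmt5b sKO it was 29.97, 35.5, 33.7 and 33.0 in the same order of genes.

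**Figure D4:**
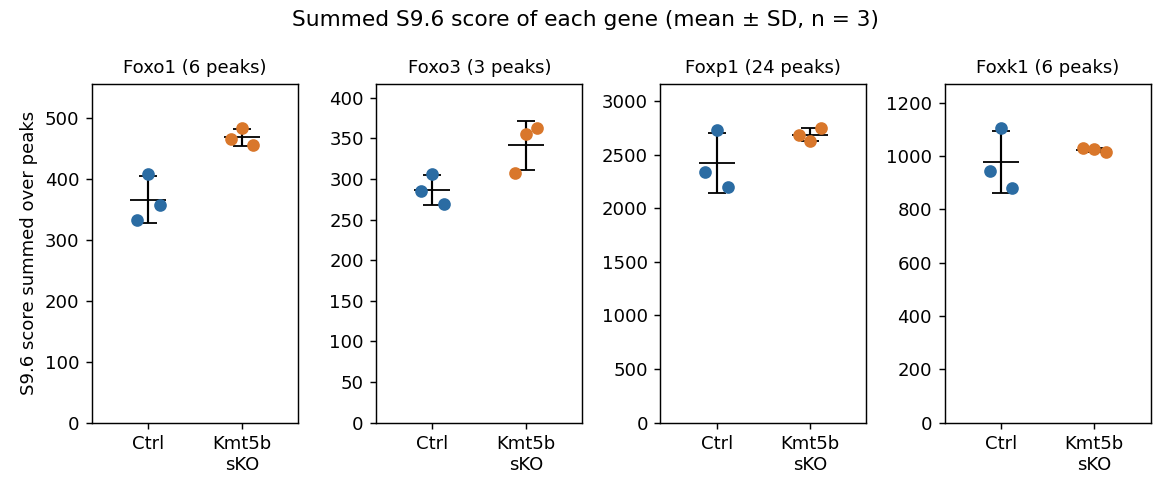
S9.6 score summed over all peaks of each gene (y axis, from 0) in 3 Ctrl and 3 Kmt5b sKO libraries, 1 panel per gene. Points are libraries, and the horizontal line and bar are the mean and SD (n = 3). The genotypes do not overlap for Foxo1 (366 ± 38.6 and 468 ± 14.3) or Foxo3 (287 ± 18.6 and 342 ± 30.3), and overlap for Foxp1 and Foxk1, on the spike-in scale. Among single tested peaks, 41.5% separate with Kmt5b sKO above, and the share over gene sums is not given. Centred on the median peak, all 4 ratios fall below 1 (exact permutation p = 0.1 for each).

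The part of the score held by the longest peak of a gene was lower on average in Kmt5b sKO for each of the 4 genes, and no difference passed a test. It was 26.8% ± 2.88 and 23.6% ± 5.99 (SD, n = 3, exact permutation p = 0.5) for Foxo1 in Ctrl and Kmt5b sKO, and 39.6% ± 2.23 and 32.9% ± 4.20 (SD, n = 3, exact permutation p = 0.2) for Foxo3. It was 26.6% ± 3.36 and 25.6% ± 2.67 (SD, n = 3, exact permutation p = 0.6) for Foxp1, and 40.2% ± 2.04 and 36.3% ± 5.79 (SD, n = 3, exact permutation p = 0.4) for Foxk1. Foxo1 had 2 peaks of equal greatest length, and the one nearer to the TSS was taken. These 4 tests and those on summed scores are not adjusted for their number, since none could go below 0.1.

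The direction of the median change depended on how the libraries were scaled. Median scores over the tested peaks were 60, 70 and 61 in Ctrl and 86, 90 and 87 in Kmt5b sKO, so that centring each library on its median peak shifted all log2 fold changes down. After centring, 10.3% of all tested peaks were called higher and 11.9% lower. The same 2 Foxo1 peaks were then called higher, and 6 forkhead peaks were called lower, namely Foxo1 peak 6, Foxk1 peak 5 and Foxp1 peaks 2, 4, 8 and 17. Ctrl replicate 2 stood apart from the other Ctrl libraries in mean autosomal score, 167.8 against 138.9 and 138.2. Without it, the ratio of summed scores was 1.36 for Foxo1, 1.23 for Foxo3, 1.19 for Foxp1 and 1.12 for Foxk1. Without it and with centring, Foxo1 peak 2 had a log2 fold change of 0.49 and was no longer called (limma adjusted p = 0.15), while Foxo1 peak 1 was called in this and each other alternative that tested it.

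The sequence features of the forkhead peaks were also set beside those of all tested peaks, as descriptions. Their median GC content was 45.4%, against 42.4% over all tested peaks, and soft-masked repeats made up a median of 16.2% against 26.7%. The peaks of Foxk1 were the most GC-rich as a group, from 49.2% to 53.6%, while those of Foxo1 ran from 37.4% to 60.6%. G exceeded C on the sense strand in 81.6% of the forkhead peaks and in 74.0% of tested peaks in genes. RefSeq promoters of 250 bases before to 50 bases after the start were at hand for Foxo1, Foxo3 and Foxp1, with 1, 1 and 3 starts, and none of them overlapped a union peak.

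Among 40 other forkhead genes, 7 had union peaks, 28 in all, of which 25 were tested. Of these 25, 8 (32.0%) were called higher, close to the 32.9% over all tested peaks, and 0 lower. Foxp4, a partner of Foxp1 in dimers, had 3 of 9 peaks called higher, the strongest of them with scores of 71, 83 and 63 in Ctrl and 125, 165 and 135 in Kmt5b sKO (log2 fold change 0.96, limma adjusted p = 3.3e-05). Foxp2 had 2 of 2 tested peaks called higher, Foxn3 2 of 4 and Foxn2 1 of 4, and none was called in Foxj2 or Foxj3. Foxp3 lies on X and was not tested.

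Genes that act with these factors were read from lists of upstream regulators, cofactors, targets and partners. Of 114 tested peaks in upstream regulators of FoxO, 15 (13.2%) were called higher and 1 lower. Akt1, whose product phosphorylates FoxO proteins, had a called peak with scores of 94, 75 and 87 in Ctrl and 135, 132 and 134 in Kmt5b sKO (log2 fold change 0.65, limma adjusted p = 0.0047). The lower peak was in Rictor, which encodes a subunit of mTORC2, with scores of 41, 63 and 51 in Ctrl and 18, 40 and 17 in Kmt5b sKO (log2 fold change −1.11, limma adjusted p = 0.0095). Of 33 tested peaks in FoxO cofactors, 5 (15.2%) were called higher, among them 1 in the acetyltransferase gene Ep300 (log2 fold change 1.04, limma adjusted p = 1.1e-05). Of 26 in FoxO targets, 5 (19.2%) were called higher, including peaks in Sod2, a mitochondrial superoxide dismutase gene (0.77, limma adjusted p = 0.0039), and Ccnd2, a D-type cyclin gene (1.13, limma adjusted p = 0.0024). Of 43 in partners of Foxk1 and Foxp1, 20 (46.5%) were called higher, including a peak in Gatad2b, a NuRD subunit gene (0.99, limma adjusted p = 0.00011). Against the 32.9% over all tested peaks these shares lay below it for the FoxO lists and above it for the partners, with no test of the lists. Peaks called higher lay in 9 of 20 tested upstream genes, 4 of 10 cofactor genes, 4 of 12 target genes and 6 of 11 partner genes. The median peak was 3200 bp long in the upstream and cofactor lists, 2200 bp in the target list and 3600 bp in the partner list, against 2400 bp over all tested peaks.

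Across the 6 libraries, after the median over 3079 genes was taken off each, the summed score of Foxo1 was most like that of Smok2a, Zdhhc5 and Ubap2l (Pearson r of 0.999, 0.997 and 0.997). That of Foxo3 was most like that of Man2a2, Map3k3 and Umad1 (0.978, 0.973 and 0.971). That of Foxp1 was most like Yy1, Rbm18 and Lrrc47 (0.969, 0.952 and 0.950), and that of Foxk1 most like Nup85, Lsg1 and Atg16l1 (0.984, 0.972 and 0.971). These are descriptions over 6 points that share libraries and scaling, chosen as the highest of many.

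As for the cells, 5 of 8 MuSC marker genes had union peaks (Des, Itga7, Myod1, Pax7 and Sdc4), 2 of 13 genes of endothelial, immune, fibro-adipogenic and Schwann cells (Pecam1 and Tek) and 1 of 3 myofibre genes (Myh1), though hybrid signal is not expression. The share of all genes with a union peak is not given here, so these counts cannot identify the cells. The Kmt5b gene carried 1 peak, with scores of 412, 658 and 420 in Ctrl and 440, 449 and 484 in Kmt5b sKO (log2 fold change −0.08, limma adjusted p = 0.68), which does not test the genotype because hybrid signal over a gene is not its product.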

How the data were processed

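DRIP-seq libraries of cultured MuSCs were grouped by genotype from the sample labels, with 3 S9.6 libraries of Ctrl and 3 of Kmt5b sKO from biological replicates. Per the methods and the submitters' processing notes, the authors trimmed reads (Trimmomatic 0.39), aligned them to mm10 (STAR 2.7.3a), removed duplicates (Picard 2.21.7), called peaks against input (Epic2, listed as SICER 0.0.41), merged these across samples (union peaks) and took the signal in each. Deposited values are a score per peak, scaled to Drosophila spike-in reads and rounded, so it was not treated as a count, and limma replaced the count model of the methods. The reads behind a score were not used here, so single scores have no interval, and a failed spike-in scaling would move all peaks of a library together.

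Autosomal peaks with a mean score over 30 were tested on log2(score + 1) in limma (version 3.58.1, R version 4.3.3), by lmFit and a trended eBayes, two-sided, with Benjamini-Hochberg adjustment over 25815 peaks. A fold change on this scale understates the change of low peaks. Calls needed a fold change above 1.5 with an adjusted p below 0.1, as in the study. Single values were compared with exact permutation tests over libraries. Prior degrees of freedom were infinite, so standard errors follow the score trend rather than a peak's own libraries. The fit was tried on simulated independent normal log scores with few changed peaks. That does not test it under a shift of whole libraries. Sequences, exons and introns came from GRCm38 and GENCODE vM21, coordinates of peaks are printed as the table gives them (a start may lie 1 base early), and promoters came from RefSeq (GRCm38.p6). Exon and intron numbers are those of 1 transcript per gene, and peaks 1 to 11 of Foxp1 lie before the start of the one taken. Python 3.11.15, numpy 2.4.6, pandas 2.3.3 and matplotlib 3.10.9 were used.

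The members and gene lists were chosen with earlier results of these data known. Named peaks were each called peak and, per gene, the longest, the nearest to the TSS and the one with most score per kb. In the other lists, the called peak with the largest change was eligible for up to 6 genes per list by adjusted p, and examples were taken from these. Some eligible peaks and 1 sequence are not reported here. Alternatives were other pseudocounts, filters, fold thresholds, scalings and variance models, a replicate block, the GENCODE overlap as gene assignment, and leaving out each library. Leaving out Ctrl replicate 2 together with centring was chosen after seeing the data.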

Additional observations from a re-analysis of the deposited data

How the results depend on the processing

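Foxo1 peak 1 was called higher in all 17 alternatives that tested it (log2 fold change 0.68 to 1.29), and Foxo1 peak 2 in 16 of 17, the exception being centring without Ctrl replicate 2. The count of forkhead peaks called higher was 0 with a mean score over 100, where neither of these peaks was tested (12.3% of all tested peaks), and 5 with no fold change minimum (42.0%). It was 2 to 4 with 1 library left out (27.8% to 35.2%), the highest without Kmt5b sKO replicate 2 (29.7%), and 1 when centred without Ctrl replicate 2 (7.04%). The count called lower was 6 when centred (11.9% of all tested peaks), 6 under quantile normalization (7.70%), 3 when centred without Ctrl replicate 2 (9.07%) and 0 with any 1 library left out.

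The median log2 fold change of the forkhead peaks was −0.036 when libraries had equal totals, −0.29 when centred, −0.22 under quantile normalization and −0.30 when centred without Ctrl replicate 2. It ran from 0.10 to 0.22 with 1 library left out. When centred, the ratio of summed scores was 0.934 for Foxo1, 0.867 for Foxo3, 0.811 for Foxp1 and 0.765 for Foxk1 (exact permutation p = 0.1 for each). With equal totals it was 1.11 for Foxo1 and 1.03 for Foxo3 (exact permutation p = 0.1 and 0.7). On that scaling it was 0.966 for Foxp1 and 0.912 for Foxk1 (exact permutation p = 0.4 and 0.1). With 1 library left out, the ratio for Foxk1 ran from 0.999 (without Ctrl replicate 3) to 1.12. The difference in the longest-peak share of Foxp1 ran from −2.50 to 0.848 percentage points with 1 library left out.

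Several peaks that were not called changed sign. With equal totals, centred, under quantile normalization and centred without Ctrl replicate 2, in that order, Foxo1 peak 5 had log2 fold changes of −0.049, −0.30, −0.20 and −0.37 and Foxk1 peak 1 had −0.14, −0.39, −0.38 and −0.50. With equal totals, centred and centred without Ctrl replicate 2, Foxp1 peak 19 had −0.11, −0.36 and −0.23 and Foxk1 peak 6 had −0.023, −0.28 and −0.26. Foxo3 peak 1 had −0.046 centred, −0.050 under quantile normalization and −0.12 centred without Ctrl replicate 2, and Foxo3 peak 3 had −0.090 and −0.030 centred with and without that library. With 1 library left out, the value ran from −0.034 to 0.28 at Foxo1 peak 5, from −0.15 to 0.12 at Foxo3 peak 2 and from −0.31 to 0.11 at Foxp1 peak 1. It ran from −0.11 to 0.27 at Foxk1 peak 1 and from −0.17 to 0.058 at Foxk1 peak 3, and, with no change of sign, from 0.0033 to 0.29 at Foxp1 peak 19. Equal totals, quantile normalization and centring, with or without Ctrl replicate 2, bring the libraries to a common level. Median and mean scores were higher on average in Kmt5b sKO, so these settings lowered its libraries against Ctrl. The cause of the moves with 1 library left out was not tested.

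The fit with the replicate number as a block left 2 forkhead peaks higher and 0 lower and changed no call among them. Same-numbered libraries did not deviate together (correlations −0.0094, 0.011 and −0.027). No pairing by number was seen in the scores, though this cannot tell whether such libraries were prepared together. With 3 libraries per genotype the smallest exact p was 0.1, and the standard errors were largest at peaks of low score.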
